A study of Drosophila melanogaster with 8 samples.

Results

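The 92 cytoplasmic ribosomal protein genes of Drosophila melanogaster were followed through maps of open chromatin from larval wing, leg and salivary gland. They are the protein-coding genes of the RefSeq dm6 annotation whose symbol starts with RpL or RpS followed by a digit or a capital letter, 92 of 13946 protein-coding genes, and mitochondrial ribosomal protein genes (mRpL, mRpS) are not among them. By symbol, 50 belong to the large subunit, 38 to the small subunit and 4 to the stalk family (RpLP0, RpLP0-like, RpLP1 and RpLP2). Genes named "-like" were kept because their symbols meet the rule, and RpLP0-like is related to a ribosome assembly factor of yeast. A tested region or a peak was assigned to a gene when its centre lay in the gene body or within 1000 bp of it. This gave 113 of the 13008 regions in the authors' comparison tables. It also gave 149 of 18464 peaks in EcR-RNAi wing, 222 of 29283 in WT wing, 213 of 26754 in WT leg and 209 of 16840 in WT salivary gland.

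The cytoplasmic ribosome is built from ribosomal RNA and one copy of most ribosomal proteins, in a large and a small subunit, and the P proteins form the stalk that recruits translation factors. The subunits need their proteins in matched amounts. These genes are transcribed at high levels in growing cells, from short promoters at the gene start. In Drosophila, loss of one copy of many of them gives the Minute phenotype, with slow development and thin bristles. Several have a second copy in the genome, and some of these copies (RpL22-like, RpS19b, RpS10a) are known mainly for expression in the germline.

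The study used FAIRE-seq, in which crosslinked chromatin is sheared and extracted with phenol and chloroform, so that DNA with few bound nucleosomes stays in the aqueous phase and is sequenced. A group had 2 libraries and there were 4 groups, all from females raised at 25C and dissected as wandering larvae at -6 h APF (hours relative to puparium formation), with at least 40 organs in a sample. The EcR-RNAi wing genotype was yw/yw on the X, Vg-GAL4 with UAS-Flp and the cassette Tub>>CD2>>GAL4 on the second chromosome, and UAS-GFP over UAS-EcR-RNAi[104] on the third. In it the vestigial driver switches on a recombinase, and the recombined cells and their descendants express GAL4 and the hairpin against the ecdysone receptor. WT wing, WT leg and WT salivary gland came from +/+; +/+; +/+ animals. EcR-RNAi wing and WT wing thus differ in the driver, the reporter and the yw background as well as in the hairpin, and no wing with the driver alone was analysed here. The salivary gland is polytene, and the DNA copy number of a locus and its openness cannot be told apart in FAIRE counts. In the gland peak list the peak names carry the prefix EcRmimic, which the labels do not explain, and the samples are taken here as labelled. A share of open cells and a degree of openness within each cell cannot be told apart either. The labels do not say whether libraries of a group came from separate collections of animals, so the p-values take in only how far the paired libraries of a group spread, and that spread may be technical.

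Tissue labels were checked against marker genes in the authors' deposited tables, where a call needs a DESeq2 p under 0.05 after Benjamini-Hochberg adjustment and a log2 fold change of 1 or more in either direction. Of 38 regions at wing genes such as vg and nub, 11 were called higher in WT wing and 1 was called higher in WT leg. Of 65 regions at leg genes such as Sp1 and Lim1, 0 were called higher in WT wing and 25 were called higher in WT leg. Of 16 regions at salivary gland genes, 0 were higher in WT wing than in gland and 7 the other way, and the peak lists were mixed: of the 10 gland genes, the glue genes Sgs1, Sgs4 and Sgs5 had peaks in the gland list and in no other, while fkh had 4 peaks in WT wing, 4 in WT leg and 2 in gland, and the other 6 had peaks in discs as well as gland. Of all regions, 21.1% were called higher in WT wing than in gland and 12.7% the other way. At EcR itself, 2 of 21 regions were called higher in EcR-RNAi wing and 1 in WT wing, where 0.789% and 1.24% of all regions were. FAIRE does not measure EcR RNA, so this does not check the knockdown.

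Most ribosomal protein genes had a peak of open chromatin close by in each tissue. A peak lay at 79 of the 92 genes in EcR-RNAi wing, 86 in WT wing, 85 in WT leg and 86 in WT salivary gland, which is 85.9%, 93.5%, 92.4% and 93.5% of them. Among all protein-coding genes the shares were 57.9%, 69.7%, 68.5% and 61.0% in the same order. Peaks in all 4 lists were present at 74 ribosomal protein genes (80.4%), against 45.6% of all protein-coding genes. Other gene sets of protein synthesis had similar shares. They were 72.6% of 73 mitochondrial ribosomal protein genes, 73.1% of 52 translation factor genes and 78.6% of 14 nucleolar and ribosome biogenesis genes. The 74 comprise 38 of 50 large subunit genes, 32 of 38 small subunit genes and all 4 stalk genes. The count depends on the limits: genes with a peak in all 4 lists numbered 36 when the peak had to cover a gene end and 35 at a −log10 q of at least 10, where 47 genes kept a gland peak. Each list was called by the authors on merged libraries, so these shares have no replicate error and were not tested. The lists also differ in length, so a peak missing from the shorter list of EcR-RNAi wing does not show less open chromatin.

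Most ribosomal protein genes had a peak summit close to a gene end. Since the annotation used here gives no strand, both ends of a gene were considered. A peak summit lay within 250 bp of an end of 66 genes in EcR-RNAi wing, 67 in WT wing, 65 in WT leg and 82 in WT salivary gland. These are 71.7%, 72.8%, 70.7% and 89.1% of the 92 genes, while the shares of all protein-coding genes were 40.3%, 38.7%, 40.2% and 47.6%. For mitochondrial ribosomal protein, translation factor and nucleolar genes the shares were 54.8%, 59.6% and 64.3% in WT wing. In WT salivary gland they were 89.0%, 76.9% and 100% for these sets. Where a gene had a peak, the median distance from the closest summit to the closer gene end was 40 bp in EcR-RNAi wing. It was 48 bp in WT wing, 53 bp in WT leg and 69.5 bp in WT salivary gland. This distance was not computed for all protein-coding genes. Ribosomal protein genes are short (median 1315 bp, against 2161 bp for all protein-coding genes), so a window of 1000 bp reaches both ends and often a neighbouring gene.

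Fold enrichment over background is the authors' own value for each peak and is used here only within a list. The highest peak of each gene had a median fold enrichment of 4.22 in EcR-RNAi wing, where the median of all peaks was 3.39. In WT wing the medians were 4.18 for the genes' highest peaks and 2.82 for all peaks, in WT leg 4.09 and 2.97, and in WT salivary gland 5.43 and 3.82. Picking the highest of several peaks raises such a value by itself: over all protein-coding genes with a peak, the same median was 4.23 in EcR-RNAi wing, 3.46 in WT wing, 3.59 in WT leg and 5.13 in WT salivary gland. The ribosomal protein genes stood above all protein-coding genes in WT wing, WT leg and WT salivary gland as a description of these lists, and level with them in EcR-RNAi wing. For translation factor genes the median was 4.49 in EcR-RNAi wing, 4.42 in WT wing, 3.79 in WT leg and 5.63 in gland. It was thus above that of ribosomal protein genes in every list but WT leg. Mitochondrial ribosomal protein genes had 3.89, 3.06, 3.66 and 5.06 in this order, and nucleolar genes 3.93, 3.89, 3.96 and 5.09.

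**Figure D1:**
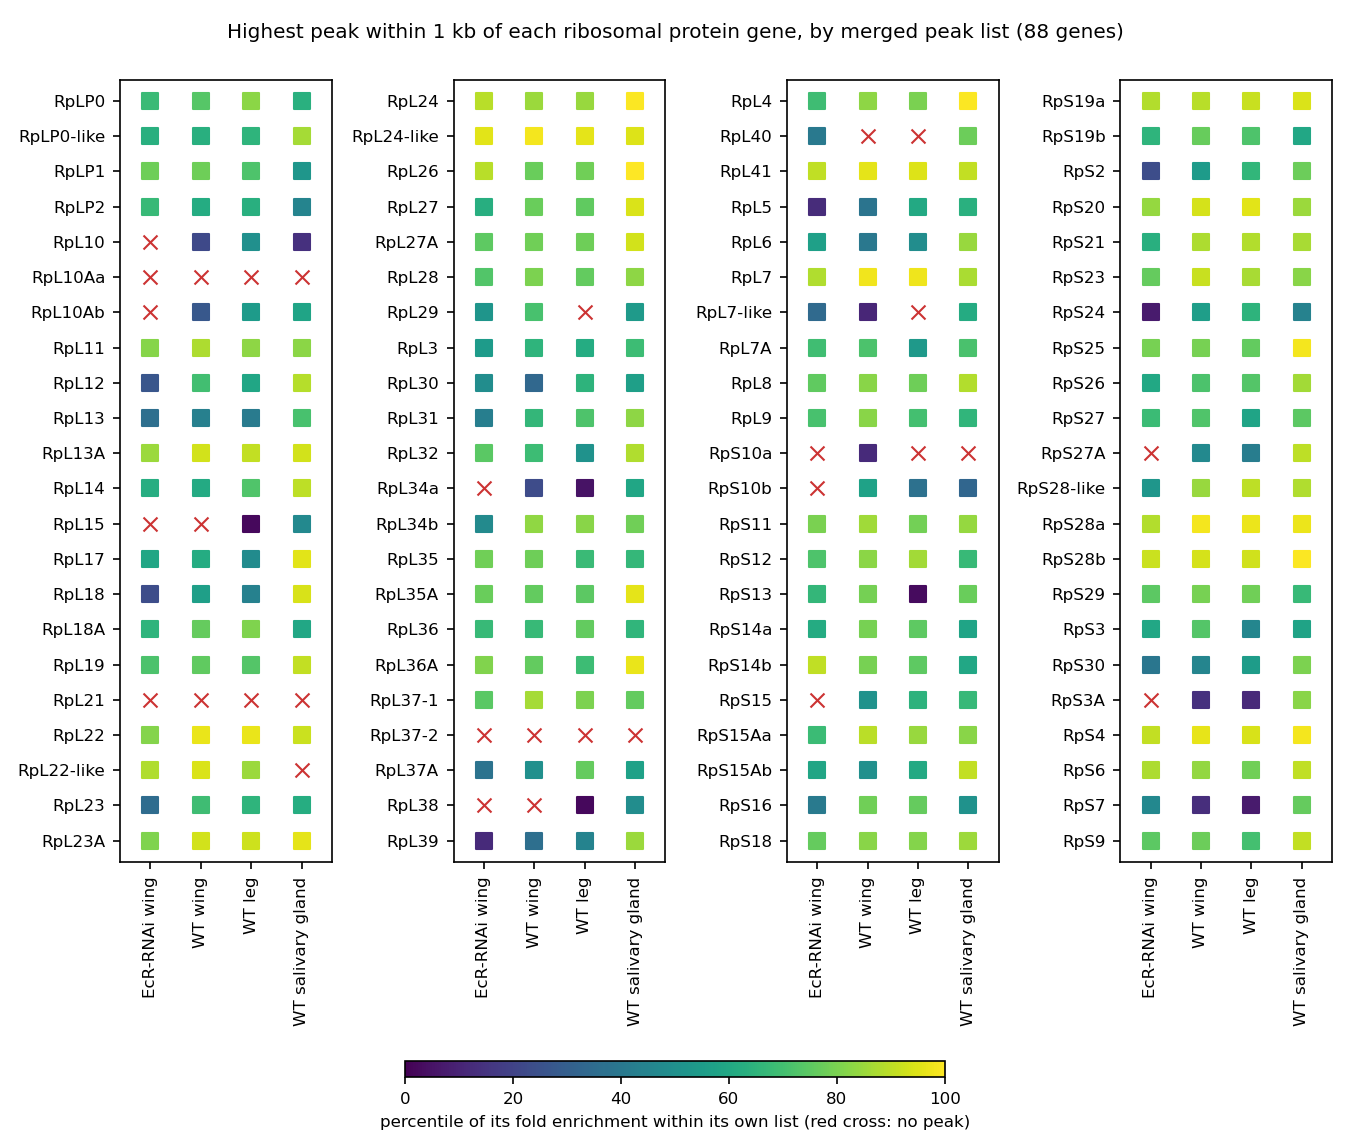
Highest peak within 1000 bp of 88 of the 92 genes (rows, stalk genes first, then large and small subunit genes) in the 4 merged peak lists (columns); colour gives the percentile of its fold enrichment within its own list and a red cross marks a gene with no peak. All 4 columns are filled for 71 of the genes shown, and 3 genes (RpL21, RpL37-2 and RpL10Aa) have no peak in any list.

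The genes with a missing peak were 18, more than the named-gene rule allows, and those reported here are named after their values were seen. RpL21, RpL37-2 and RpL10Aa had a peak in no list (3.26%, against 19.1% of all protein-coding genes). RpL22-like had peaks in the EcR-RNAi wing, WT wing and WT leg lists and none in WT salivary gland. In the EcR-RNAi wing list alone, 7 genes lacked a peak: RpS27A, RpS15, RpL10Ab, RpL10, RpL34a, RpS3A and RpS10b. RpL7-like and RpL29 lacked one in WT leg, RpL15 and RpL38 lacked one in both wing lists, RpL40 had peaks in EcR-RNAi wing and WT salivary gland only, and RpS10a had a single peak, in WT wing. Of these 18 genes, 15 have no tested region, so no fold change with an error exists for them. RpL40 and RpS27A encode ubiquitin fused to a ribosomal protein.

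Genes of similar symbol differed in their peaks in some families. Of all 92 genes, 74 (80.4%) had peaks in all 4 lists, so some pairs of any genes would differ too. Whether copies differ more than other pairs of genes was not tested. Families were formed by symbol alone, and a gene named "-like" need not be a copy of its namesake. The 13 families hold 27 genes, and in 5 of them a gene had peaks in all 4 lists while another did not. RpL37-1 had a highest fold enrichment of 4.57 in EcR-RNAi wing, 5.57 in WT wing and 4.90 in WT leg, with a peak in gland too, while RpL37-2 had no peak. RpL10Ab had 2.44 in WT wing, 3.10 in WT leg and 4.15 in WT salivary gland, and its copy RpL10Aa had no peak. RpL34b had peaks in all lists and RpL34a lacked one in EcR-RNAi wing, and RpL7 had peaks in all lists while RpL7-like lacked one in WT leg. RpS19b, known mainly from the germline, had a peak in all 4 lists, but the summits lay 1058 bp (EcR-RNAi wing), 649 bp (WT wing), 653 bp (WT leg) and 277 bp (gland) from an end of the gene. Its 1 tested region was nearest to CG5854. The reads of near-identical copies may have been shared or lost in mapping, and the part of this in the missing peaks was not tested.

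The 113 tested regions belong to 71 of the 92 genes (77.2%, against 51.7% of all protein-coding genes), and 21 genes have none, 39 have 1, 21 have 2 and 11 have 3. One region lies between RpS14a and RpS14b and counts for both. Of the 113 regions, 103 (91.2%) were centred within 500 bp of the end of a protein-coding gene, against 36.0% of all 13008 regions. The nearest gene end was that of a ribosomal protein gene for 69 regions and that of another gene for 44. The mean normalized count over the 8 libraries, per region and not per length, had a median of 100.3 and ran between 22.6 and 621. The highest counts were at wide regions: RpS14b (621, 2431 bp wide, nearest to the end of Ubr3), RpS28a (597.6, 2023 bp), RpL22 (407.9, 1672 bp), RpL4 (339.8, 1413 bp, nearest to mino) and RpL19 (292.9, 1580 bp). The lowest were narrow: RpS16 (22.6, 145 bp), RpL31 (24.8, 187 bp), RpL35 (24.8, 139 bp), RpL32 (25.4, 146 bp) and RpL15 (25.6, 128 bp).

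Regions close to the 1000 bp limit were those of RpL32 (centres 950.5 and 985.5 bp from the gene body) and RpS13 (990 bp) on the inside, and of RpL7A (1019.5 bp), RpLP0-like (1036 bp) and RpS23 (1052.5 bp) on the outside. Without a value per library in the tables, the level of each group was computed from the mean normalized count over the 8 libraries and the fold changes, and has no error of its own. The fold change carries the standard error (SE) of the authors' fit, with 2 libraries per group.

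**Figure D2:**
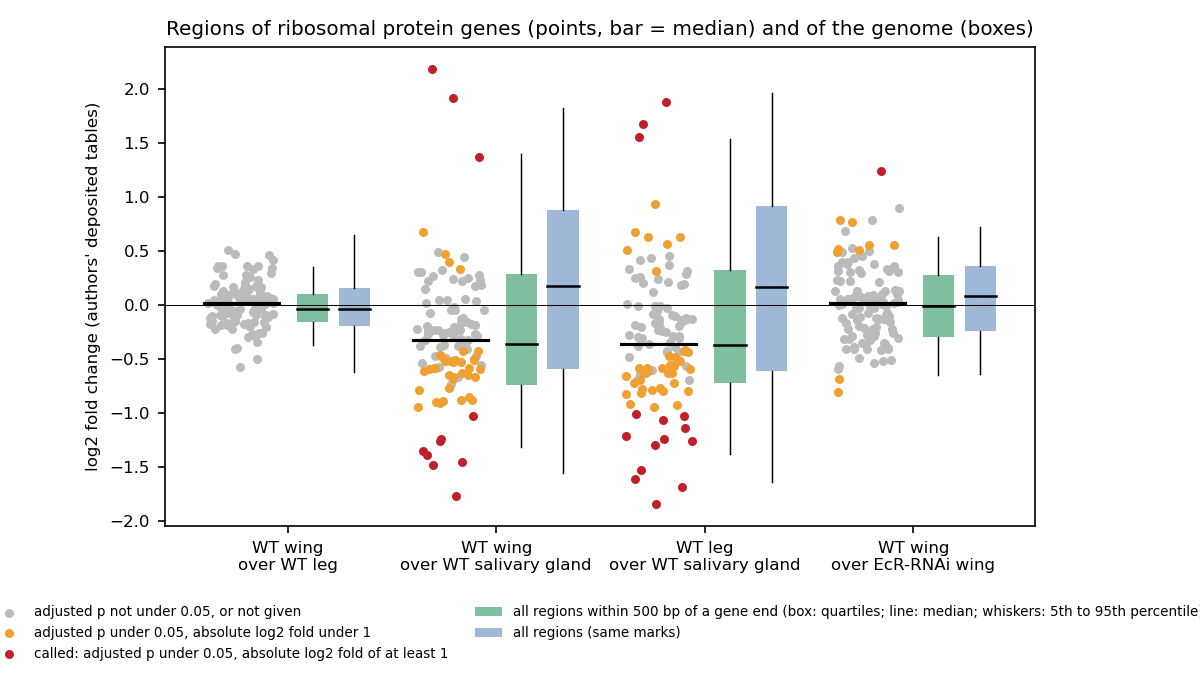
Log2 fold change in the authors' deposited tables for the 113 regions of ribosomal protein genes (points, with a bar at their median) and, as boxes, for all 4683 regions within 500 bp of a gene end and all 13008 regions, in the 4 comparisons. A positive value is higher in the group named first on the axis label. Points spread least between WT wing and WT leg, and the 3 highest points in both gland comparisons are the regions of RpL22-like.

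The first question is whether these genes differ between the 2 appendage tissues, and no region was called. Of 105 ribosomal protein gene regions with an adjusted p in the authors' deposited table (DESeq2), 0 were called higher in WT wing and 0 higher in WT leg, where 2.04% and 2.21% of all regions were. At an adjusted p under 0.05 with any fold the counts were also 0 and 0, and over all regions 5.05% and 5.25%. Gene-end regions in general were seldom called in this comparison, 0.780% and 0.847% of them at any fold. At an unadjusted p under 0.05, 1 region (0.885%) was higher in WT wing and 3 (2.65%) were higher in WT leg, against 8.13% and 8.64% of all regions. The median log2 fold change of WT wing over WT leg was 0.02 over the 113 regions, against -0.03 over all regions, with a range of -0.57 to 0.51.

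The 5 highest and 5 lowest folds show the size of what remained. RpL22-like had the highest, at the region chr2R:23245994-23246584, with 0.51 ± 0.19 (log2, SE, adjusted p = 0.0783 by DESeq2 in the authors' deposited table). RpS19a, RpS20 and RpS23, all of the small subunit, were also among them, at 0.47 ± 0.30, 0.41 ± 0.38 and 0.37 ± 0.29, also from the authors' deposited table. On the low side stood RpL37A at -0.57 ± 0.29, another region of RpL22-like at -0.50 ± 0.26, the stalk gene RpLP0 at -0.40 ± 0.27, RpS28-like at -0.40 ± 0.19 and RpL36A at -0.34 ± 0.34, from the authors' deposited table. Not one of the 10 passed the test.

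Between WT wing and WT salivary gland the calls fell on few genes. Of 113 regions in the authors' deposited table (DESeq2), 3 were called higher in WT wing, all at RpL22-like, and 8 were called higher in WT salivary gland, at 7 genes. Over all regions 21.1% and 12.7% were called, so at this fold threshold the ribosomal protein genes were below the background in both directions (2.65% and 7.08%). At any fold, 7 regions (6.19%) were higher in WT wing and 40 (35.4%) in WT salivary gland, where 40.5% and 28.1% of all regions were. The share higher in gland was then above that of all regions, but below the 41.9% of gene-end regions. The median log2 fold of WT wing over WT salivary gland was -0.33, against 0.18 over all regions and -0.36 over the 4683 regions near a gene end. By the median, the lean towards the gland was thus about that of gene-end regions in general. It was smaller over the 69 regions nearest to a ribosomal protein gene (median -0.25, 29.0% higher in gland at any fold). Over the 44 regions nearest to another gene the median was -0.50 and the share 45.5%. The difference between these parts was not tested. The shares of the 113 regions higher in WT wing were below those of gene-end regions, which were 21.4% at any fold and 9.59% called. That difference was not tested. Centred on the median of all regions the calls were 3 and 15, and centred on the median of gene-end regions they were 4 and 4.

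WT leg against WT salivary gland gave the same kind of counts, with the same gland libraries. In the authors' deposited table (DESeq2), 3 regions were called higher in WT leg, again those of RpL22-like, and 12 were called higher in WT salivary gland, at 11 genes. The background was 22.6% and 13.3%, and the ribosomal protein gene regions had 2.65% and 10.6%. At any fold there were 10 (8.85%) higher in WT leg and 43 (38.1%) higher in gland, with a background of 40.5% and 27.9%, and 40.2% of gene-end regions were higher in gland. The median log2 fold of WT leg over WT salivary gland was -0.36, against 0.17 over all regions and -0.37 over gene-end regions. It was -0.24 over the 69 regions nearest to a ribosomal protein gene and -0.56 over the 44 nearest to another gene. Centred on the median of all regions the calls were 3 and 15, and centred on that of gene-end regions 7 and 4.

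RpL22-like, the copy of the large subunit gene RpL22, carried every call towards the discs. Its gene body lies on chromosome 2R and 3 tested regions surround or overlap it: chr2R:23245994-23246584, centred 321 bp below the lower-coordinate gene end; chr2R:23246880-23247638, centred inside the gene; and chr2R:23248532-23248919, centred 832.5 bp beyond the other end. All 3 were nearest to RpL22-like among protein-coding genes. The level at the region below the gene, derived from the authors' deposited tables, was 182 in WT wing, 128 in WT leg and 39.8 in WT salivary gland. The region inside the gene had 175 in WT wing, 137 in WT leg and 46.4 in WT salivary gland, and the region beyond it had 78.9 in WT wing, 112 in WT leg and 30.4 in WT salivary gland. Gland was thus the lowest of the groups at each of the 3, with EcR-RNAi wing at 169.7, 129.7 and 59.7.

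At the region below RpL22-like, the authors' deposited tables (DESeq2) gave a log2 fold of 2.19 ± 0.21 (SE, 4.57-fold, adjusted p = 1.26e-24) for WT wing over WT salivary gland. For WT leg over WT salivary gland the same region had 1.68 ± 0.22 (3.21-fold, adjusted p = 7.96e-14) in the authors' deposited tables. Inside the gene the authors' deposited tables (DESeq2) gave 1.92 ± 0.22 (adjusted p = 5.22e-17) for wing over gland and 1.56 ± 0.23 (adjusted p = 4.69e-11) for leg over gland. Beyond it they were 1.38 ± 0.28 (adjusted p = 4.54e-06) for wing and 1.88 ± 0.28 (adjusted p = 2.26e-10) for leg, in the authors' deposited tables (DESeq2). In these 6 folds the difference exceeded 4 times its SE. Some regions at marker genes of other cell types were also called higher in WT wing than in gland. They were 5 of 9 at tracheal, 12 of 25 at myoblast and 2 of 3 at haemocyte genes, where 21.1% of all regions were. The other way went 0, 2 and 0, where 12.7% of all regions did. Against WT leg, 5, 9 and 2 were higher in the disc, and 0, 3 and 0 the other way. The 1 region at fat body genes was not called. The part of these cell types in the result at RpL22-like was not tested.

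RpL22 itself, on the X chromosome, had smaller folds. Its 1 region (chrX:764482-766153) overlapped a gene end and had levels of 437 in WT wing, 537 in WT leg and 346 in WT salivary gland. The log2 folds in the authors' deposited tables (DESeq2) were 0.34 ± 0.15 (adjusted p = 0.0351) for WT wing over gland and 0.63 ± 0.15 (adjusted p = 6.46e-05) for WT leg over gland, both short of the fold threshold. The difference between RpL22-like and RpL22 was not tested. In the peak lists RpL22-like had 3 peaks in each of EcR-RNAi wing, WT wing and WT leg, the highest at 5.69, 7.52 and 5.87, and none in WT salivary gland. RpL22 had a gland peak of 6.33.

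**Figure D3:**
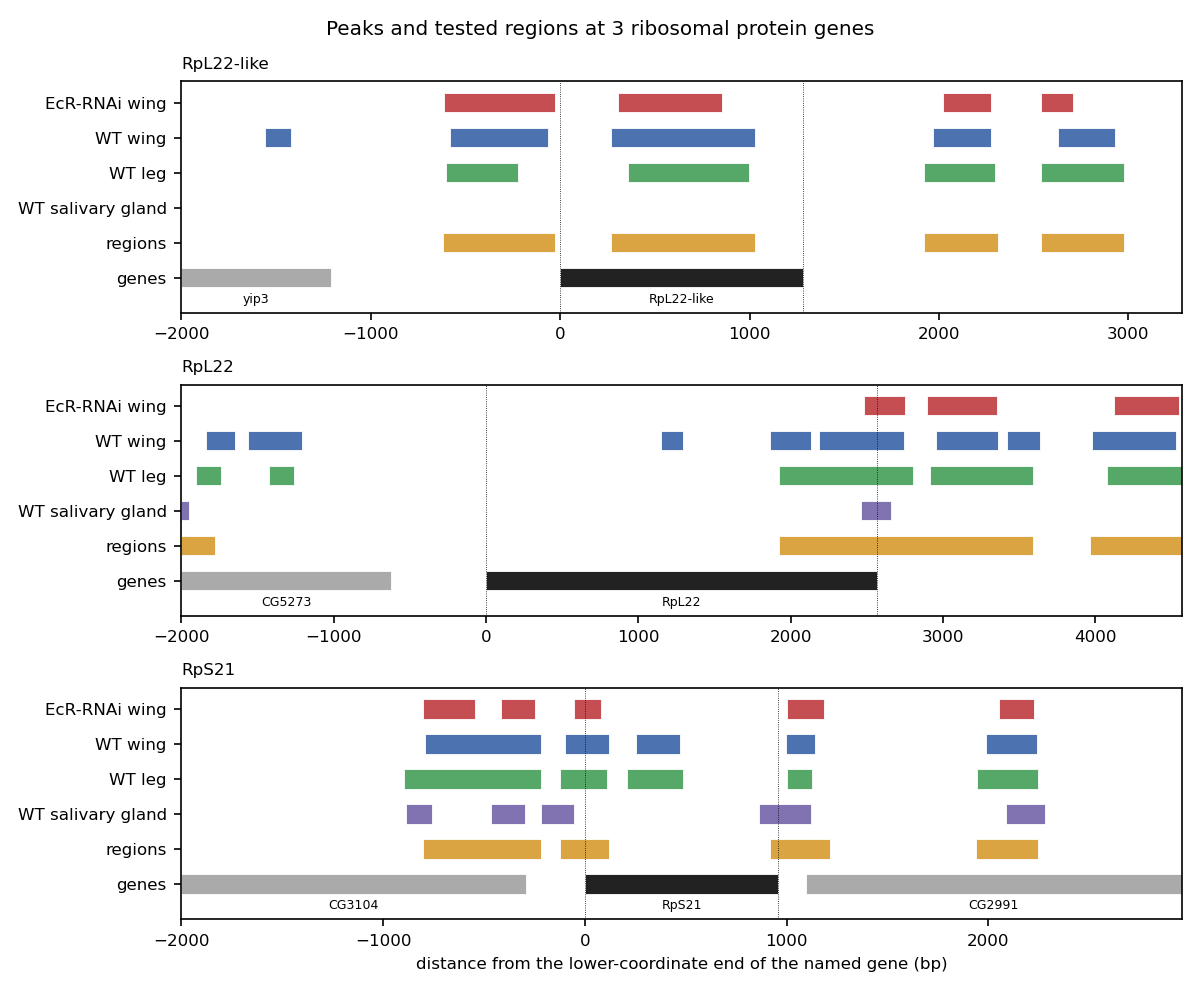
Peaks of the 4 merged lists (top 4 rows of each panel), tested regions and protein-coding genes around RpL22-like, RpL22 and RpS21, by distance in bp from the lower-coordinate end of the named gene; dotted lines mark its 2 ends. At RpL22-like the gland row is empty while the 3 disc rows hold peaks on both sides of and inside the gene, and at RpS21 the tested region at the lower end is the one called between EcR-RNAi wing and WT wing.

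Beyond RpL22-like, 4 more regions passed an adjusted p under 0.05 towards WT wing below the fold threshold, and they stand at 4 genes of both subunits. In the authors' deposited table (DESeq2) these were RpS21 (log2 0.68 ± 0.24, adjusted p = 0.00783), RpL41, RpL7 and RpL22. RpL34b, next in fold, had 0.50 ± 0.23 with an adjusted p of 0.0530 by DESeq2 in the authors' deposited table. Towards WT leg, RpS21, RpL41, RpL7, RpL22, RpS28a, RpS4 and RpLP0 passed in this way. RpS21 had 0.94 ± 0.24 (adjusted p = 0.000241) for WT leg over gland and RpLP0 had 0.67 ± 0.27 (adjusted p = 0.0209) in the authors' deposited table (DESeq2).

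The regions called higher in WT salivary gland numbered 13 at 12 genes over both comparisons, and 7 of them were called against both discs. Those 7 were at RpL31, RpL15, RpL23 and RpL35 of the large subunit and RpS16 (2 regions) and RpS23 of the small subunit. The strongest was at RpL31 (chr2R:9588584-9588770), with levels of 14.96 in WT wing, 14.2 in WT leg and 50.9 in WT salivary gland. Its log2 folds in the authors' deposited tables (DESeq2) were -1.77 ± 0.38 for WT wing over gland (adjusted p = 2.77e-05) and -1.85 ± 0.40 for WT leg over gland (adjusted p = 3.8e-05). This region was nearest to the end of CG1827, 373 bp away, and lay 688 bp from RpL31.

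At RpS16, which encodes a small subunit protein, the region chr2R:22608461-22608755 had levels of 32.6 in WT wing, 39.3 in WT leg and 91.3 in WT salivary gland. The log2 folds in the authors' deposited tables (DESeq2) were -1.49 ± 0.29 for wing over gland (adjusted p = 2.38e-06) and -1.22 ± 0.30 for leg over gland (adjusted p = 0.000183). Its other region (chr2R:22608824-22608968) had -1.39 ± 0.39 for wing over gland and -1.68 ± 0.41 for leg over gland in the authors' deposited tables, and both regions were nearest to other genes (Vps20 and tous). RpL15, which lies in the pericentromeric part of chromosome 3L, had levels of 17.6 in WT wing, 15.9 in WT leg and 48.4 in WT salivary gland inside its gene. The folds there were -1.46 ± 0.38 for wing over gland and -1.61 ± 0.40 for leg over gland in the authors' deposited tables. RpS23 had 24.7 in WT wing, 26.7 in WT leg and 63.1 in WT salivary gland at a region centred 450 bp from an end of its gene (chr2R:14216073-14216281). RpL23 and RpL35 had log2 folds of -1.26 ± 0.35 and -1.24 ± 0.37 for wing over gland, and of -1.53 ± 0.37 and -1.30 ± 0.38 for leg over gland, in the authors' deposited tables.

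The other 6 regions were called against one disc only, and whether the discs differ there was not what these calls test: in the direct comparison none of them passed. RpL36A was called against WT wing (-1.03 ± 0.32 in the authors' deposited table). RpS24, RpL7, RpS13 and RpS6 were among those called against WT leg, at -1.26 ± 0.30, -1.14 ± 0.29, -1.02 ± 0.20 and -1.01 ± 0.24 in the authors' deposited table. RpS6 encodes the small subunit protein that is phosphorylated downstream of the TOR pathway, and its region was nearest to the end of bys.

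Gland-high calls lay at regions of low count. All 8 called against WT wing and 10 of the 12 called against WT leg had a mean normalized count under 70.8, the lower quartile of all regions, and 33 of the 113 regions did. Low-count regions leaned towards the gland over the whole table as well: of all 3252 regions under that quartile, 74.3% had a negative fold of WT wing over gland and 74.2% of WT leg over gland in the authors' deposited tables, against 44.6% and 44.8% of all regions. The gland-high regions of ribosomal protein genes had a median count of 31.1 in the wing comparison and 43.2 in the leg comparison, against 106.5 for those not called. Their median widths were 188 bp and 234.5 bp, against 404.5 bp for those not called. Of the 13, 9 overlapped a gland peak, 5 a peak of EcR-RNAi wing, 5 one of WT wing and 3 one of WT leg, and for 7 the nearest gene end was that of a ribosomal protein gene.

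**Figure D4:**
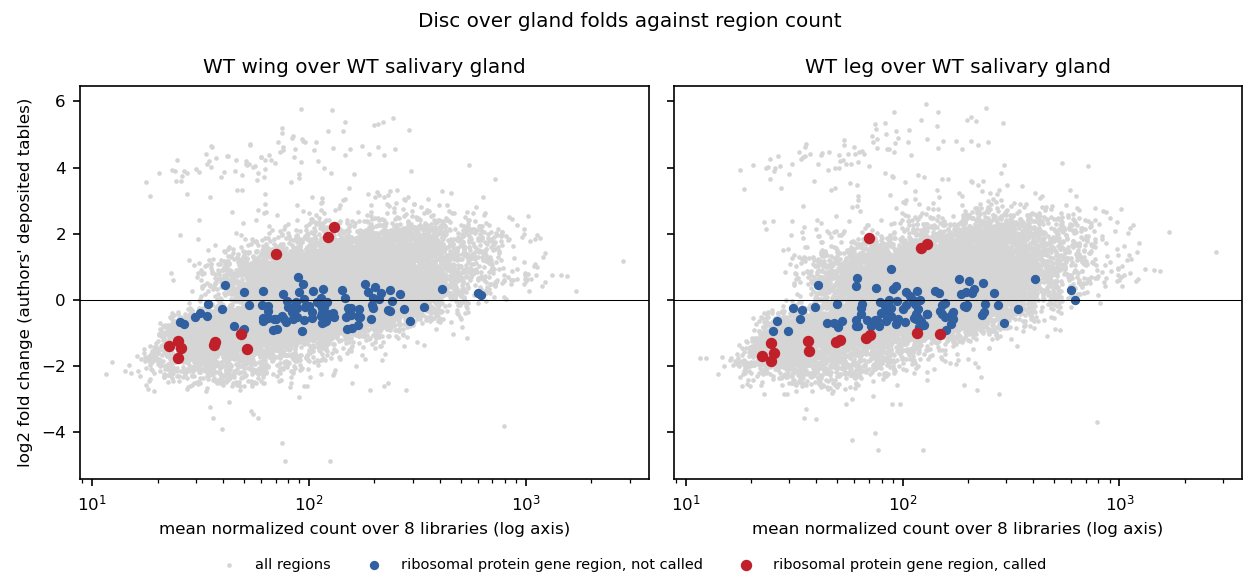
Log2 fold change of WT wing (left) and WT leg (right) over WT salivary gland in the authors' deposited tables against the mean normalized count over the 8 libraries (log axis), for all regions (grey) and for the 113 ribosomal protein gene regions not called (blue) and called (red). The called points below 0 gather at the low-count end, where most grey points are also below 0, while the 3 called points above 0 have counts between 70.2 and 130.

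The 4 stalk family genes had 5 regions, with no call in any comparison. In the authors' deposited tables (DESeq2) 3 of them were higher in gland than in both discs at an adjusted p under 0.05 and any fold, near RpLP1, RpLP0 and RpLP0-like. Each of these 3 was nearer to the end of another gene: CG11885 at 7 bp, CG7130 at 29 bp and 14-3-3zeta at 42 bp. The region near RpLP1 had -0.46 ± 0.21 and that near RpLP0-like -0.61 ± 0.25 for WT wing over gland, and -0.52 ± 0.21 and -0.63 ± 0.26 for WT leg over gland, in the authors' deposited tables. RpLP0 had a region leaning each way in the leg comparison, -0.59 ± 0.19 at one and 0.67 ± 0.27 at the other in the authors' deposited table. By subunit, the median log2 fold of wing over gland was -0.37 over 51 large subunit regions and -0.27 over 57 small subunit regions, with leg over gland at -0.41 and -0.30, and the difference between subunits was not tested.

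**Figure D5:**
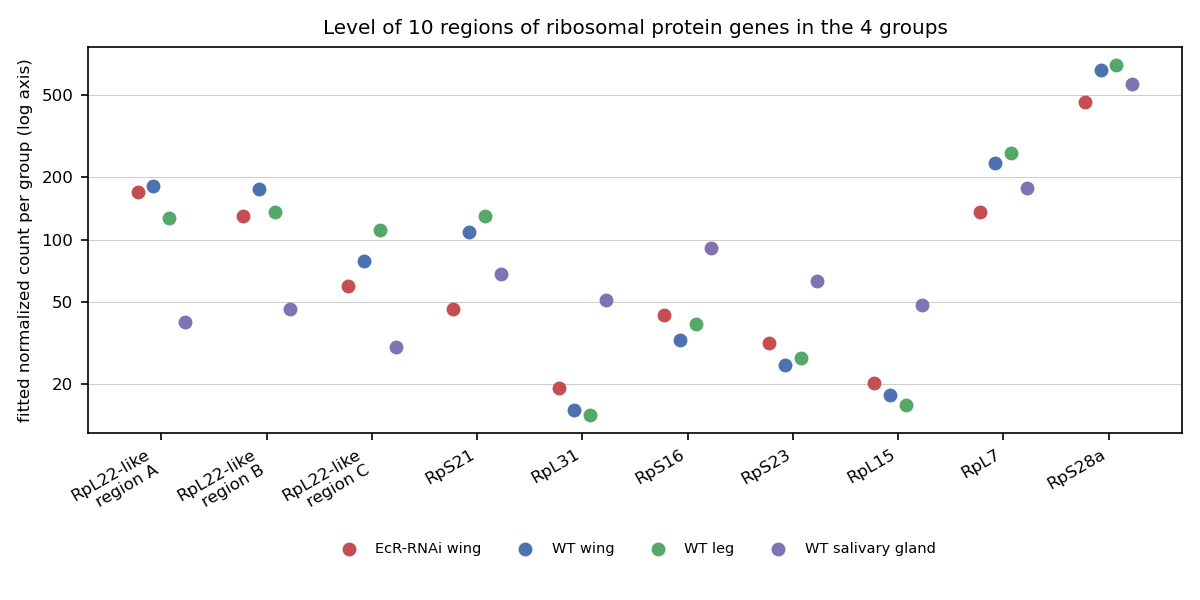
Level of 10 regions in EcR-RNAi wing, WT wing, WT leg and WT salivary gland (points, in this order from left to right), as the normalized count derived from the authors' mean and fold changes, on a log axis and without error bars because the tables give no value per library. The 3 RpL22-like regions (A below, B inside and C beyond the gene) are lowest in gland, RpL31, RpS16, RpS23 and RpL15 are highest in gland, and RpS21, RpL7 and RpS28a are lowest in EcR-RNAi wing.

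Between EcR-RNAi wing and WT wing nearly all of these regions were without a call, as were nearly all regions in general. In the authors' deposited table the fold is written as WT wing over EcR-RNAi wing, so a positive value is lower in EcR-RNAi wing. Of 107 regions with an adjusted p (DESeq2), 0 were called higher and 1 was called lower in EcR-RNAi wing, where 0.789% and 1.24% of all regions were. At any fold, 2 (1.87%) were higher and 8 (7.48%) were lower, with a background of 5.38% and 10.4%. Of gene-end regions, 0.548% were called higher and 0.592% lower in EcR-RNAi wing, and 4.34% and 8.42% passed at any fold. At an unadjusted p under 0.05, 6 (5.31%) were higher and 14 (12.4%) were lower, against 11.3% and 20.5% of all regions. Of the 4683 gene-end regions, 570 were then higher and 772 lower. The median log2 fold of WT wing over EcR-RNAi wing was 0.02, against 0.08 over all regions and -0.01 over gene-end regions.

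The called region was at RpS21, a small subunit gene whose loss causes overgrowth of larval blood cells. It spans the lower-coordinate end of the gene at chr2L:2855947-2856188, with its centre 2.5 bp from that end. Its level was 46.1 in EcR-RNAi wing and 109 in WT wing, with 130 in WT leg and 68.0 in WT salivary gland. EcR-RNAi wing was the lowest of the 4 groups. The log2 fold of WT over EcR-RNAi wing was 1.24 ± 0.25 (SE, adjusted p = 8.92e-05 by DESeq2 in the authors' deposited table), so the region was 2.37-fold lower in EcR-RNAi wing. All 4 lists had a peak overlapping it. The other tested regions of RpS21 were not called. Their log2 folds were 0.02 ± 0.19 below the gene and -0.39 ± 0.25 at its other end, in the authors' deposited table.

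The other regions lower in EcR-RNAi wing at an adjusted p under 0.05 included those at RpL7, RpL34b and RpL22 of the large subunit and at RpS28a, RpS20 and RpS4 of the small subunit. RpL7 had 136 in EcR-RNAi wing and 234 in WT wing, a log2 fold of WT over EcR-RNAi wing of 0.79 ± 0.19 (adjusted p = 0.00146 by DESeq2 in the authors' deposited table). RpL34b had 67.7 in EcR-RNAi wing and 115 in WT wing, with 0.77 ± 0.24 (adjusted p = 0.0187 by DESeq2) in the authors' deposited table. RpS28a had 461 in EcR-RNAi wing and 660.2 in WT wing, and RpL22 had 312 in EcR-RNAi wing and 437 in WT wing. RpS20 had 199 in EcR-RNAi wing and 294 in WT wing, and RpS4 had 111 in EcR-RNAi wing and 163 in WT wing. The log2 folds of RpS28a, RpL22, RpS20 and RpS4 (WT over EcR-RNAi wing) lay between 0.49 (RpL22) and 0.56 (RpS4) in the authors' deposited table, with adjusted p (DESeq2) between 0.00227 (RpS28a) and 0.0416 (RpS4). All 8 regions were nearest to the end of the ribosomal protein gene itself.

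The 2 regions higher in EcR-RNAi wing at an adjusted p under 0.05 were both nearest to another gene. The region at RpL26, a large subunit gene, had 185 in EcR-RNAi wing and 115 in WT wing, a log2 fold of WT over EcR-RNAi wing of -0.68 ± 0.21 (adjusted p = 0.0167 by DESeq2 in the authors' deposited table), and was nearest to CG3902. Other extremes missed the threshold: RpS20 at 0.90 ± 0.38 and RpS3 at 0.79 ± 0.36 on one side, and RpLP0-like and RpLP1 at -0.56 ± 0.25 and -0.54 ± 0.21 on the other, in the authors' deposited table.

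Of the 222 peaks of these genes in WT wing, 121 (54.5%) were overlapped by at least 1 bp by a peak of EcR-RNAi wing, 181 (81.5%) by one of WT leg and 117 (52.7%) by one of WT salivary gland. Of all 29283 WT wing peaks, 50.6% were overlapped by a peak of EcR-RNAi wing, 74.1% by one of WT leg and 23.2% by one of WT salivary gland. The differences from all peaks were not tested. The lists differ in length and in peak width, so these shares do not rank the tissues. Compared with other gene sets of protein synthesis, the regions of ribosomal protein genes had a median log2 fold of wing over gland of -0.33 where 78 regions of mitochondrial ribosomal protein genes had -0.60 and 63 regions of translation factor genes had -0.54. The 16 regions of nucleolar and ribosome biogenesis genes had -0.24. For leg over gland the medians were -0.36 for ribosomal protein genes, -0.55 for mitochondrial ribosomal protein genes, -0.56 for translation factor genes and -0.35 for nucleolar genes. The differences between the sets were not tested.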

How the data were processed

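FAIRE-seq libraries from 4 groups of 2 were analysed from the files the authors deposited. Per the submitters' processing notes, the tools were Bowtie2 2.3.4.1, SAMtools 1.9, Picard 2.2.4, bedtools 2.26, R 3.5.2, MACS2 2.1.2 and DESeq2 (version not given), with build dm6; their settings are not given. Per the file headers, the deposited comparison tables hold, for each of 13008 regions, a mean normalized count (signal), a log2 fold change, its standard error, a test statistic (score), and raw and adjusted p-values. The deposited peak lists, called on libraries the authors merged, hold a fold enrichment (ratio), −log10 p and q values and a score for each peak. The gland list carries a fragment size tag that the other lists lack, per the labels. No value per library was given, so depth per library is unknown and the count test planned for such values was not run.

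Regions and peaks were assigned to RefSeq dm6 gene bodies by their centre, within 1000 bp, with Python 3.11.15, pandas 2.3.3 and numpy 2.4.6; the assignment and counting were tested on simulated data. Coordinates are as the authors' tables give them. Group levels were solved from the mean count and the folds, which add up across the tables. Calls need an adjusted p under 0.05 over the whole table and an absolute log2 fold of at least 1. Missing adjusted p-values stayed missing. Columns of other samples numbered 0. The members and gene lists were chosen with earlier results of these data known. Genes were named if called, among the 5 highest or lowest folds of a comparison or counts, in a copy pair where one has a peak, or in the stalk family; some of these genes are not reported here. Alternatives were other thresholds, windows, overlaps and centrings, regions nearest to a ribosomal protein gene, regions above the lower quartile of the count and, chosen after seeing the data, regions over the gene body. No genome sequence or strand was used here, so promoter sequences and motifs were not analysed.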

Additional observations from a re-analysis of the deposited data

How the results depend on the processing

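Of 115 recomputed counts and medians, 86 stayed within 1.5 times of the reported count or within the spread and 29 moved. Regions higher in WT wing than in gland (3) were 7 at any fold and 1 over the gene body. Regions higher in gland than in WT wing (8) were 40 at any fold, 0 above the lower quartile of the count, 15 centred on all regions, 4 centred on gene-end regions, 4 within 500 bp, 14 within 2000 bp, 4 among regions nearest to a ribosomal protein gene and 4 over the gene body. Regions higher in WT leg than in gland (3) were 10 at any fold, 7 with gene-end centring, 7 within 2000 bp and 1 over the gene body. Regions higher in gland than in WT leg (12) were 43 at any fold, 2 above the lower quartile, 4 with gene-end centring, 6 within 500 bp, 19 within 2000 bp, 6 among those nearest to a ribosomal protein gene and 6 over the gene body. With gene-end centring the median log2 folds over gland were 0.036 for WT wing and 0.0031 for WT leg, where the reported medians were negative, and the split of leg against gland calls turned to more leg-high (7) than gland-high (4). The median of WT wing over EcR-RNAi wing, 0.02, was -0.07 centred on all regions and -0.01 above the lower quartile of the count. At any fold, 2 regions were higher in EcR-RNAi wing and 8 in WT wing. With a −log10 q of at least 10, genes with a gland peak were 47 and genes with a peak in all 4 lists 35, and 36 genes had a peak over a gene end in all 4. Under reciprocal overlap of at least 50% of each peak, 55 of the 222 WT wing peaks were shared with gland. Stricter limits let fewer features pass, and the causes of these changes were not tested. Of 54 values of called regions, 42 kept their call and 12, all gland-high, fell short with gene-end centring, while the calls at RpL22-like and RpS21 held under both centrings.

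No paired analysis was possible because the tables and lists hold no value per library, so no fit took replicate numbers and neither library of a group was left out. Depth per library is unknown and no detection limit was computed. A region without a call is not shown to be equal between groups. Regions farther than 1000 bp from a gene were not assigned to it.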

Other observations

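Other genes of protein synthesis had median folds towards the gland, as gene-end regions in general did (-0.36 for WT wing over gland). The medians were -0.60 for mitochondrial ribosomal protein, -0.54 for translation factor and -0.24 for nucleolar gene regions. Their shares of disc-high calls were below those of all regions. Gland-high calls were 6.25% of the 16 nucleolar gene regions in both comparisons. At any fold, 51.3%, 58.7% and 31.25% of the regions of these sets were higher in gland than in WT wing. The shares were 28.1% of all regions and 41.9% of gene-end regions. These differences were not tested. Of 73 mitochondrial ribosomal protein genes, 54 had a tested region. Of their 78 regions, 1 was called higher in WT wing than in gland and 11 the other way in the authors' deposited table. The counts for WT leg against gland were the same. Gland-high calls were 14.1%, against 12.7% and 13.3% of all regions. Disc-high calls were 1.28%, against 21.1% (WT wing) and 22.6% (WT leg) of all regions. A peak was present at all 73 of these genes in the gland list, against 62 in EcR-RNAi wing, 63 in WT wing and 59 in WT leg. A tested region was assigned to 37 of 52 translation factor genes. Among their 63 regions, 1 (1.59%) was called higher in either disc, at eIF5B, which encodes the factor that joins the ribosomal subunits. Its log2 fold was 1.00 ± 0.17 for WT wing over gland (adjusted p = 2.97e-08 by DESeq2) and 1.27 ± 0.17 for WT leg over gland (adjusted p = 1.31e-12 by DESeq2) in the authors' deposited tables. Called higher in gland were 7 regions (11.1%) against WT wing and 11 (17.5%) against WT leg. The most negative folds were at eIF3h, -1.93 ± 0.39 for wing over gland and -2.24 ± 0.42 for leg over gland in the authors' deposited tables. At eIF4E1, the gene of the main cap-binding protein, they were -1.57 ± 0.28 for wing over gland and -1.49 ± 0.29 for leg over gland in the authors' deposited tables. In EcR-RNAi wing against WT wing no region of either list was called.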
